A study of Mus musculus with 10 samples.

Results

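The alpha-defensins and the other secreted products of Paneth cells were followed across sorted intestinal stem cells of the mouse. The rows were chosen by name: 13 rows whose symbol begins with Defa, pseudogenes left out, and 10 further genes, Lyz1, Lyz2, Itln1, Ang4, Mmp7, Mptx1, Mptx2, Habp2, Cd24a and Wnt3. These 23 rows are 23 of 30295 gene rows in the deposited tables, and all 23 were among the 15839 rows that passed the filter on low counts. RNA came from 10 C57Bl/6 mice, 1 library each. Hopx cells were sorted from Hopx-CreER::LSL-tdTomato mice under calorie restriction (Hopx CR, n = 2) or fed ad libitum (Hopx AL, n = 2). Lgr5 cells were sorted from Lgr5-EGFP-IRES-CreER mice under calorie restriction (Lgr5 CR, n = 3) or fed ad libitum (Lgr5 AL, n = 3). The labels give neither ages nor how long or how far food was restricted, and they name no gate against Paneth cells. In the Hopx line the recombined tdTomato allele is permanent, so cells that descend from a labelled cell keep the label, whereas EGFP in the Lgr5 line follows the Lgr5 locus at the time of the sort. The animals were handled in 5 isolations, each with 1 CR and 1 AL mouse of the same line: isolations 4 and 5 hold the Hopx mice and isolations 1, 2 and 3 the Lgr5 mice. Reporter line and isolation therefore cannot be told apart in any comparison of Hopx with Lgr5 cells.

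Paneth cells sit between the Lgr5 stem cells at the base of small intestinal crypts and release granules of antimicrobial peptides into the crypt lumen. Mouse alpha-defensins, also called cryptdins, are made as precursors that the metalloprotease Mmp7 cleaves to the active peptide. Paneth cells also make lysozyme, the lectin intelectin and the Wnt3 signal that neighbouring stem cells need, and Wnt signalling through TCF factors is known to drive Paneth cell gene expression. In mice the alpha-defensin genes are a cluster of recent copies, and this decides how well their reads can be told apart.

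All 13 Defa rows lie on mouse chromosome 8 within 709.927 kb (chr8:21025545-21735471, GRCm38, GENCODE M21). When coding sequences were joined at 89% identity or more, 2 groups formed. The Defa24 group holds 7 rows (Defa24, Defa23, Defa17, Defa3, Defa26, Defa25 and Defa-rs7). The Defa21 group holds 4 rows (Defa21, Defa22, Defa2 and Defa20). Defa5 joined neither group and was at most 85.5% identical to any other of the 13 rows. It has near-identical copies that the deposited tables list under older names, among them Gm15293 (Defa41) at 98.9% and Gm21498 (Defa36) at 98.6% identity. The coding sequences of Defa24 (chr8:21734494-21735471, plus strand) and Defa23 (chr8:21055047-21056016, plus strand) represent the abundant group. Those of Defa22 (chr8:21162277-21163249, plus strand) and Defa20 (chr8:21509258-21510237, plus strand) represent the group that differed most between diets in Lgr5 cells. The coordinates give each gene's span, the sequences are the spliced coding exons from start to stop codon, and capitals mark bases that differ from Defa24 in a global alignment.
Defa24: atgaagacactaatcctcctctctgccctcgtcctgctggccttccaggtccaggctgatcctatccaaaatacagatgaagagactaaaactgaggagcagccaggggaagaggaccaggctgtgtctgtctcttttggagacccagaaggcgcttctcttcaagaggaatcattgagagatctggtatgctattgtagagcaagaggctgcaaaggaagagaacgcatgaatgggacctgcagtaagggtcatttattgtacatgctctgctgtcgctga
Defa23: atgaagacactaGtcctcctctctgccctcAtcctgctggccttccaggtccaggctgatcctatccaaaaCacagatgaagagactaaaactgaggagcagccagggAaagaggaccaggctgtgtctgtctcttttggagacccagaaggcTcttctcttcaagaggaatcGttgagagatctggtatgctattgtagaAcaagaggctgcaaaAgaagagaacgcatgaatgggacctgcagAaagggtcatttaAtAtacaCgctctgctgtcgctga
Defa22: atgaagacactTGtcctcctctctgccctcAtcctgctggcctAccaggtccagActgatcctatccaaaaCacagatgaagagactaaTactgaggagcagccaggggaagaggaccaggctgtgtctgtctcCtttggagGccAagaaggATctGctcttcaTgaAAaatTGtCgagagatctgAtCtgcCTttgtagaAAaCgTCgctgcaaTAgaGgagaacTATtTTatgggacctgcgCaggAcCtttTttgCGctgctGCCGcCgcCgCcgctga
Defa20: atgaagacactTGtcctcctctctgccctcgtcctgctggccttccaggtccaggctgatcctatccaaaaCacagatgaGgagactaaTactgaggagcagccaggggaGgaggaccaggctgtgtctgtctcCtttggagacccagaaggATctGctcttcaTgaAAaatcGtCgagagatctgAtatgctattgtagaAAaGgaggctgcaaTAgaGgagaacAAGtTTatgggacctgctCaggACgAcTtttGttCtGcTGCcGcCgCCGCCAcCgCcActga
Defa23 carries 12 capitals over 282 bases, and Defa22 and Defa20 carry 49 each. Defa24 and Defa20 were 82.4% identical, Defa21 and Defa22 99.3%, and Defa2 and Defa20 99.7%. Defa23 and Defa-rs7 had the same coding sequence, as did Defa17 and Defa3.

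Such copies leave few reads that belong to 1 gene. The share of a gene's 31-base words that occur in no other GENCODE M21 gene was 0% for Defa2, Defa20, Defa23 and Defa-rs7. It was 0.289% for Defa5, 6.81% for Defa17, 7.37% for Defa3, 8.23% for Defa22, 16% for Defa21 and 42.9% for Defa24. Defa2 shared 92.2% of its words with Defa33, and Defa20 shared 92.2% with Defa32, genes that the deposited tables list under older names. Outside the family the shares were high, with 65.8% for Lyz1, 67.2% for Lyz2, 75% for Mptx1, 74.9% for Mptx2 and 100% for Wnt3. Single Defa rows therefore depend on how the counting divided shared reads, while sums over a sequence group and the other genes depend on it less.

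RefSeq promoters (GRCm38.p6) were given for 6 of the 13 Defa rows: Defa21, Defa22, Defa2, Defa20, Defa23 and Defa-rs7. The 250 bases before the start are shown for Defa22 (chr8:21162027-21162276, plus strand) and Defa23 (chr8:21054790-21055039, plus strand), 1 of each sequence group. Capitals mark ATCAAAG, the reverse complement of the TCF core CTTTGAT, and the TATA box TATAAA.
Defa22 promoter: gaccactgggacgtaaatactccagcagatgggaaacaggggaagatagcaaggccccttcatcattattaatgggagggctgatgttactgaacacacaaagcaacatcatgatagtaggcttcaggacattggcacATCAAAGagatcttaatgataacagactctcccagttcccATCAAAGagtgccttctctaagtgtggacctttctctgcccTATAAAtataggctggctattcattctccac
Defa23 promoter: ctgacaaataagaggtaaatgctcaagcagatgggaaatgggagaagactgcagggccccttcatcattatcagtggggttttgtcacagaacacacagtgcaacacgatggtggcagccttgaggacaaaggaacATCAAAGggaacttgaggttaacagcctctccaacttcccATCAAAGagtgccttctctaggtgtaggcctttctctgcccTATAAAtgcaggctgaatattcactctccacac
CTTTGAT, searched on both strands, was found in 6 of 6 Defa promoters and in 3.21% of all 32851 promoters of the same length. TATAAA was found in 6 of 6 Defa promoters and in 12.4% of all promoters. The E-box CACCTG was found in 0 of 6 Defa promoters and in 17.2% of all. The 6 promoters are copies of each other and are not independent: Defa21 and Defa22 were 100% identical, Defa22 and Defa20 98%, and Defa22 and Defa23 78%. The promoters given for the 2 groups thus hold the same matches, and a match describes letters and not binding. For the Defa24 group only those of Defa23 and Defa-rs7 were given, which were 100% identical. The promoters of the other rows of that group, Defa24 among them, were not searched.

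Library depth was 20251405 to 87215705 estimated counts, lowest in Lgr5 AL replicate 3. Paneth products were abundant in every library although the sorts were for stem cells. Together the 23 rows made up 2.25% to 20.4% of a library's counts and 8.65% to 40.7% of its TPM, a level scaled by transcript length. The lowest share was that of Lgr5 AL replicate 3 and the highest that of Hopx AL replicate 1. In such bulk samples fewer cells of a type and less RNA per cell cannot be told apart. Lgr5 AL replicate 3 stood apart as the library with the lowest summed Defa level and the highest sum of 8 active stem cell markers. That sum was 1915 and 1570 TPM in Hopx CR, 1084 and 1923 TPM in Hopx AL, 5035, 4211 and 4983 TPM in Lgr5 CR, and 2698, 3837 and 9177 TPM in Lgr5 AL. Hopx mRNA did not mark the Hopx sort: it was 80.4 to 111 TPM in Hopx CR, 76 to 96.5 TPM in Hopx AL, 173 to 188 TPM in Lgr5 CR and 138 to 238 TPM in Lgr5 AL. Isolation 4 paired animals that differed in a Y-linked transcript, with Eif2s3y at 0.125 TPM in Hopx CR replicate 1 and 14.5 TPM in Hopx AL replicate 1. Isolation 3 differed in it from the other Lgr5 isolations. Eif2s3y was at 0.0766 TPM in Lgr5 CR replicate 3 and 0.045 TPM in Lgr5 AL replicate 3, against 8.91 to 30.5 TPM in the other Lgr5 libraries.

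Defa24, a classical cryptdin, had the highest TPM of all gene rows in all 10 libraries. It stood at 114291 and 93723 TPM in Hopx CR, 148706 and 117354 TPM in Hopx AL, 51551, 54588.5 and 63285 TPM in Lgr5 CR, and 64823, 86002 and 33728.5 TPM in Lgr5 AL. Every Hopx library was above every Lgr5 library. Defa17 and Defa23 followed at 8645 to 40388 TPM and 7889 to 37010 TPM, and Defa3 at 3781 to 20828 TPM. Lyz1, the lysozyme of Paneth cell granules, had 34077 and 21604 TPM in Hopx CR, 65357 and 27023.5 TPM in Hopx AL, 27045, 27489 and 37894.5 TPM in Lgr5 CR, and 26280, 28184.5 and 8700 TPM in Lgr5 AL. Its groups overlap, and the highest and lowest values are single libraries, Hopx AL replicate 1 and Lgr5 AL replicate 3.

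Itln1, a lectin that binds microbial sugars, spanned 8256 to 23979 TPM. Ang4, a microbicidal ribonuclease, spanned 2332 to 7776 TPM and Mptx2, a pentraxin of the gut epithelium, 1096 to 4135 TPM. Mmp7, the defensin-activating protease, spanned 407 to 1115 TPM. Cd24a, a surface glycoprotein used to gate Paneth cells, spanned 191 to 458 TPM. Lower still were the protease Habp2 at 58.6 to 172 TPM, Lyz2, the lysozyme of macrophages and granulocytes, at 7.24 to 72.2 TPM and Wnt3 at 6.81 to 15.8 TPM. Defa25 was at the limit of detection with 0 to 18 estimated counts per library, listed at 0 in Lgr5 AL replicate 3.

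**Figure D1:**
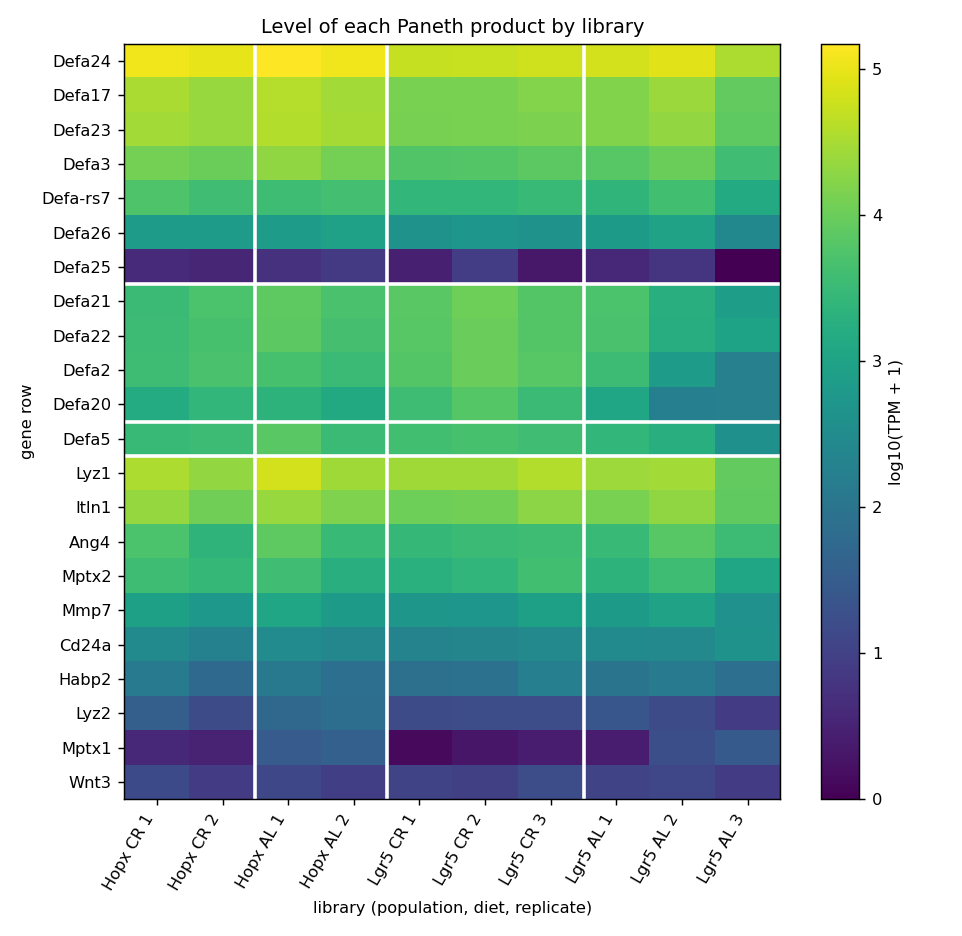
Heat map of log10(TPM + 1) for gene rows (down) in 10 libraries (across), with white lines between the 4 groups and between the Defa24 group, the Defa21 group, Defa5 and the other products. Defa24 was highest throughout, and Lgr5 AL replicates 2 and 3 stand out by low values in the Defa21 group.

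Calorie restriction in Hopx cells was examined first. All 23 rows had a negative log2 fold change in Hopx CR against Hopx AL, with a median of -0.67 beside -0.02 over all tested rows, and none passed the test. On log2(TPM + 1) the median of all rows shifted to 0.15, and that of the members was -0.34, a difference of -0.49, with 4 rows higher and 19 lower. Summed over the 13 Defa rows, the TMM-normalized level was 42100 and 34256 CPM (counts scaled to a common library size) in Hopx CR, against 80832 and 43748 CPM in Hopx AL. Both CR libraries were below both AL libraries, but Hopx CR replicate 1 and Hopx AL replicate 2 nearly met. The sums averaged 38178 ± 5546 CPM in Hopx CR and 62290 ± 26222 CPM in Hopx AL (SD, n = 2 each), a log2 ratio of -0.71. The pooled SD of the log2 sum within groups was 0.63. Within isolation 4 the log2 ratio was -0.94 and within isolation 5 it was -0.35.

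By edgeR's quasi-likelihood test 0 of 23 rows passed an adjusted p of 0.05, where 0.0126% of all rows did, and 2 had an unadjusted p under 0.05, where 8.52% of all rows did. These were Mptx1 and Lyz2. DESeq2 called 1 row, Mptx1, against 0.884% of all rows, and limma on log2(TPM + 1) called 0, against 0.0253% of all rows. The CPM values of Hopx CR lay below those of Hopx AL without overlap for 10 rows, against 21.1% of all rows, and above for 0, against 21.5%. In the 2 isolations 19 rows were lower in both CR animals, against 29.2% of all rows, and 0 were higher in both, against 27.9%. The 23 rows are not separate observations, because Defa rows share reads and many of the rows varied together over the libraries. Such counts of rows, here and below, therefore do not measure enrichment, which was not tested. With isolation as a block edgeR called 0 rows, against 0% of all rows.

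Defa24 had 23020 and 18280 CPM in Hopx CR against 41628 and 24530 CPM in Hopx AL (log2 fold change -0.68, SE 0.52, edgeR adjusted p = 0.74). Lyz1 had 40979 and 25158 CPM in Hopx CR against 109235 and 33726 CPM in Hopx AL (-1.11, SE 0.72, edgeR adjusted p = 0.687). The Lyz1 value rested on Hopx AL replicate 1, without which it was -0.02. The median over the 23 rows was -0.05 without that library, with 10 rows higher and 13 lower, and the summed Defa ratio was -0.19. The smallest shifts among the other products were -0.19 for Mptx2, -0.33 for Habp2 and -0.34 for Wnt3. Other marker lists differed in the same libraries: 10 of 10 enterocyte markers had positive values (11103 and 13704 TPM in sum in Hopx CR against 6577 and 6141 TPM in Hopx AL), and 8 of 8 enteroendocrine and 9 of 10 lymphocyte markers negative ones. The enteroendocrine sums overlap, at 3218 and 1227 TPM in Hopx CR against 1903 and 3149 TPM in Hopx AL. The lymphocyte sums were 15.9 and 70.3 TPM in Hopx CR against 147 and 77 TPM in Hopx AL. The part of these lists in the values of the 23 rows was not tested.

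**Figure D2:**
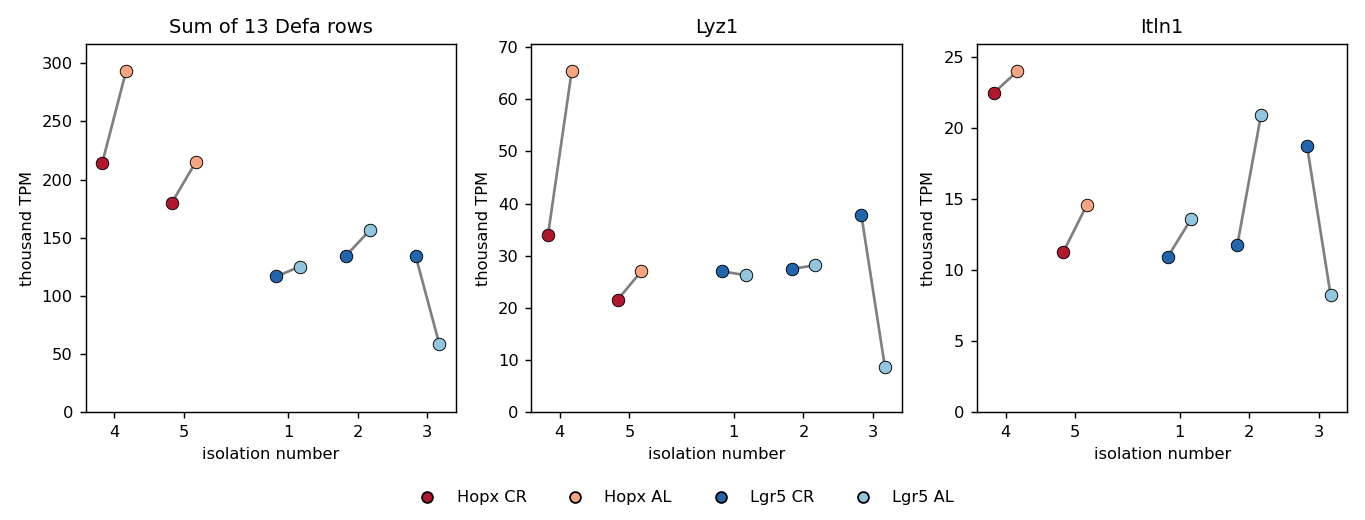
Summed level of the 13 Defa rows, Lyz1 and Itln1 in TPM divided by 1000 (vertical) by isolation (horizontal), with a line joining the CR (left point) and AL (right point) mouse of an isolation. The Defa sum was lower in the CR mouse of isolations 4, 5, 1 and 2, and higher in that of isolation 3, whose AL mouse is Lgr5 AL replicate 3.

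In Lgr5 cells the 2 sequence groups had different values under calorie restriction, with the Defa24 group near 0 and the Defa21 group higher in Lgr5 CR, and no row passed the test. The summed Defa level was 18313, 22094 and 20365 CPM in Lgr5 CR and 19707, 23732 and 6122 CPM in Lgr5 AL, averaging 20257 ± 1893 CPM and 16520 ± 9227 CPM (SD, n = 3 each). The groups overlap, and the log2 ratio of 0.29 was smaller than the pooled SD of 0.63. Within isolations 1, 2 and 3 it was -0.11, -0.10 and 1.73. Without Lgr5 AL replicate 3 the ratio was -0.10. The median over the 23 rows was 0.20, with 15 higher and 8 lower, and -0.18 without that library.

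The rows of the Defa21 group had the 4 highest log2 fold changes in Lgr5 CR against Lgr5 AL, and those of the Defa24 group lay between -0.35 and 0.35. Defa20 had 601, 1099 and 530 CPM in Lgr5 CR, against 191, 27.1 and 19.6 CPM in Lgr5 AL (3.23, SE 0.82, edgeR adjusted p = 0.235). Defa2 had 1017, 1733 and 1092 CPM in Lgr5 CR, against 594, 117 and 19.8 CPM in Lgr5 AL (2.39, SE 0.9, edgeR adjusted p = 0.429). In both rows the groups do not overlap, and Lgr5 AL replicates 2 and 3 were far below replicate 1. Defa21 differed by 1.70, Defa22 by 1.66 and Defa5 by 1.42. In contrast Defa24 had 8289, 9145 and 9783 CPM in Lgr5 CR against 10469, 13476 and 3616 CPM in Lgr5 AL, a log2 fold change of -0.02 (SE 0.43). Defa23, Defa17 and Defa3 differed by -0.04, -0.07 and -0.01.

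Because Defa20 and Defa2 have no sequence words of their own, the sum over the group depends less on how shared reads were divided. The Defa21 group summed to 23716, 36618 and 22412 TPM in Lgr5 CR, against 14791, 4317 and 2146 TPM in Lgr5 AL. That was 20.3%, 27.2% and 16.7% of the summed Defa TPM in Lgr5 CR and 11.8%, 2.76% and 3.64% in Lgr5 AL. Every Lgr5 CR library was above every Lgr5 AL library. In Hopx cells the share was 5.66% and 9.66% in Hopx CR and 7.54% and 6.53% in Hopx AL, with overlap, and every Lgr5 CR library was above all Hopx libraries. Copies with identical coding sequences are listed under older names outside the 23 rows. They divide the same reads with Defa2 and Defa20, so their values are not separate evidence. Gm21002 (Defa33), whose coding sequence equals that of Defa2, had 1549, 2192 and 1773 TPM in Lgr5 CR against 229, 10.2 and 25.7 TPM in Lgr5 AL. Gm15308 (Defa32), whose coding sequence equals that of Defa20, had 758, 1750 and 638 TPM in Lgr5 CR against 421, 181 and 25.2 TPM in Lgr5 AL. The share has no test, since the groups of sequences were formed after the values had been seen.

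**Figure D3:**
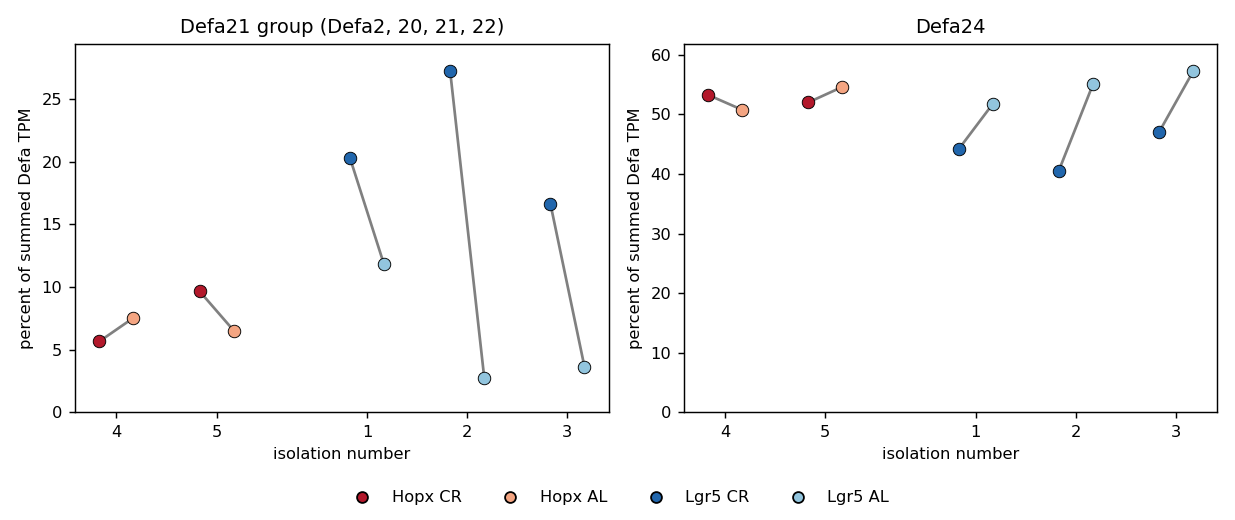
Share of the summed Defa TPM (percent, vertical) taken by the Defa21 group and by Defa24, by isolation (horizontal), with CR left and AL right in each pair. The Defa21 group share is 16.7% to 27.2% in Lgr5 CR and 2.76% to 11.8% in Lgr5 AL and the Defa24 share 40.6% to 47% in Lgr5 CR and 51.7% to 57.2% in Lgr5 AL, both being parts of 1 total.

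No row passed edgeR's adjusted threshold in Lgr5 CR against Lgr5 AL (0 of 23, against 0.0189% of all rows), and 5 had an unadjusted p under 0.05 (9.78% of all rows): Mptx1, Defa20, Defa22, Defa2 and Defa21. DESeq2 called 2 rows, Mptx1 lower and Defa20 higher (adjusted p = 0.0264), against 2.3% of all rows, and gave no p for Defa2. Limma on log2(TPM + 1) called 0, against 0.12% of all rows, and on log2(TPM + 0.1) 1, against 0.145%. Without the filter on low counts edgeR called 2, against 0.335%, and with isolation as a block 0, against 0%. The CPM values did not overlap for 5 rows that were higher (7.41% of all rows), Defa2, Defa20, Defa21, Defa22 and Defa5, and for 2 that were lower (7.49%), Cd24a and Mptx1. In all 3 Lgr5 isolations 6 rows were higher in the CR animal, against 18.1% of all rows. Without Lgr5 AL replicate 1, edgeR called 4 rows, Defa2, Defa20, Defa22 and Mptx1, against 0.694% of all rows, so that 1 library decides these calls. Defa20 was then at 4.99 (edgeR adjusted p = 0.0171), and without Lgr5 AL replicate 3 at 2.75. Tuft cell markers moved with diet in the same libraries: 7 of 7 had a negative log2 fold change, and their sums were 62.8, 73.9 and 44.5 TPM in Lgr5 CR and 234, 127 and 485 TPM in Lgr5 AL. Of the enterocyte markers 10 of 10 had positive values, but their sums overlap. They were 18757, 12595 and 13636 TPM in Lgr5 CR and 20480, 6300 and 5558 TPM in Lgr5 AL. In isolation 1 the enterocyte sum was higher in the AL mouse. The part of these lists in the Defa21 group values was not tested.

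Of the other products in Lgr5 cells, Lyz1 had 25965, 27496 and 34975 CPM in Lgr5 CR against 25341, 26369 and 5569 CPM in Lgr5 AL (0.63, SE 0.58, edgeR adjusted p = 0.771). Its groups overlap, and the value was 0.18 without Lgr5 AL replicate 3. Itln1 differed by 0.06, Mmp7 by 0.08, Lyz2 by 0.13, Habp2 by 0.25, Mptx2 by 0.38 and Wnt3 by 0.38. Ang4 differed by -0.33 and Cd24a by -0.28. Cd24a had 310, 354 and 383 CPM in Lgr5 CR against 426, 396 and 453 CPM in Lgr5 AL, and its groups do not overlap.

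Mptx1 was lower under restriction in both populations, although it did not pass edgeR's adjusted threshold in either. Of the 23 rows its log2 fold change was the furthest from 0 in both fits without the isolation block. With the block in Lgr5 cells Defa20 (4.02) and Defa2 (3.57) exceeded Mptx1 (-3.42). It had 1.81 and 1.46 CPM in Hopx CR, against 26.3 and 25.8 CPM in Hopx AL, and 0.182, 0.564 and 0.738 CPM in Lgr5 CR, against 0.821, 8.47 and 9.999 CPM in Lgr5 AL. These correspond to 150 and 62.6 estimated counts in Hopx CR, 1631 and 991 in Hopx AL, 7.29, 16.9 and 57.5 in Lgr5 CR, and 22.8, 366 and 246 in Lgr5 AL. In neither population do the diets overlap, although Lgr5 AL replicate 1 lies near the CR libraries. It is next to Lgr5 CR replicate 3 (0.821 against 0.738 CPM) and holds only 22.8 estimated counts. The lack of overlap in Lgr5 cells is therefore uncertain. The log2 fold change was -3.99 in Hopx cells (SE 0.97, edgeR adjusted p = 0.455) and -3.67 in Lgr5 cells (SE 0.80, edgeR adjusted p = 0.189). Averaged over both populations, a contrast added after the data had been seen, it was -3.83 (SE 0.64, edgeR adjusted p = 0.0698) and DESeq2 gave an adjusted p of 3.92e-09.

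In that averaged contrast edgeR called 0 of 23 rows, against 0.00631% of all rows, and 2 had an unadjusted p under 0.05 (14.5% of all rows). DESeq2 called 1 (4.05% of all rows), and limma on log2(TPM + 1) called 0 (0.316%). Without the filter on low counts edgeR called 1 (0.473%), and with isolation as a block 0 (0.0126%). Within the 5 isolations the log2 ratio of Mptx1 was -0.95, -3.08, -3.08, -3.53 and -3.75. Mptx1 and Cd24a were the 2 rows lower in the CR mouse of all 5 isolations, against 7.66% of all rows, and 0 rows were higher in all 5, against 8.71%. Without Lgr5 AL replicate 1 the averaged value was -4.09 (edgeR adjusted p = 0.00474), and edgeR called 2 rows, Mptx1 and Defa20, against 2.22% of all rows.

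Mptx2, the closest paralogue of Mptx1, did not follow it. Mptx2 had 3619 and 2734 TPM in Hopx CR, 3779 and 1808 TPM in Hopx AL, 1915, 2530 and 4135 TPM in Lgr5 CR, and 2188, 3724 and 1096 TPM in Lgr5 AL. Mptx1 reached 2.78 and 2.29 TPM in Hopx CR, 29.1 and 38.2 TPM in Hopx AL, 0.363, 1.03 and 1.49 TPM in Lgr5 CR, and 1.56, 16.7 and 28.8 TPM in Lgr5 AL. Mptx1 was thus 0.019% to 2.63% of the Mptx2 level, and the genes share 25% of their 31-base words. The summed Defa level and Mptx1 were weakly related over the 10 libraries (Pearson r 0.31), whereas the r of Mptx2 with the sum was 0.86.

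**Figure D4:**
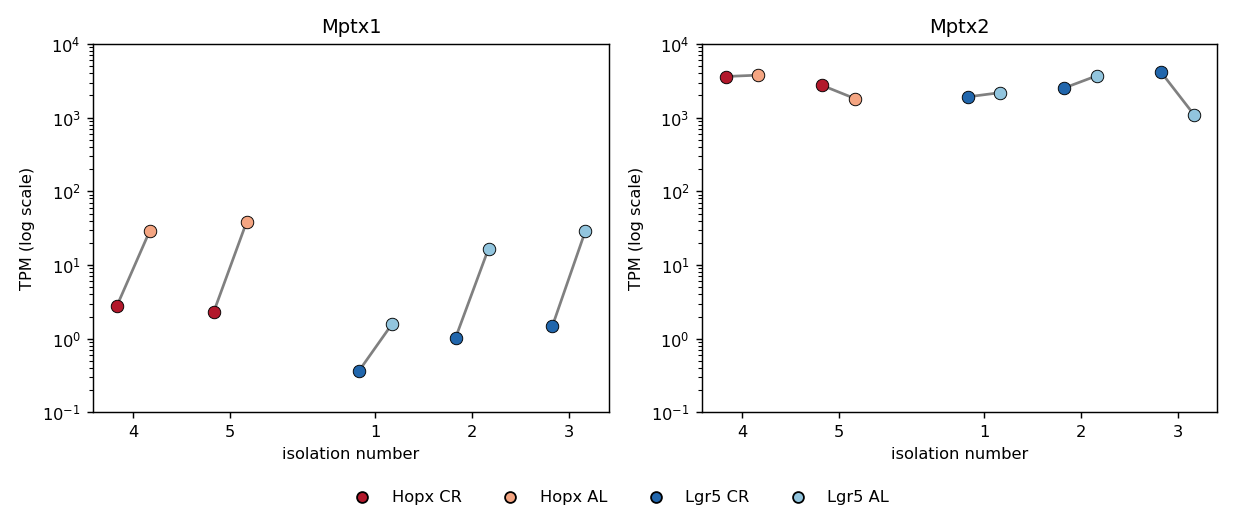
Mptx1 and Mptx2 in TPM on a log axis (vertical) by isolation (horizontal), CR left and AL right in each pair. Mptx1 is lower in the CR mouse of all 5 isolations, and Mptx2 stays between 1096 and 4135 TPM with no common direction.

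The diet effects in Hopx and Lgr5 cells were then compared directly. The difference, Hopx minus Lgr5, was negative for 23 of 23 rows, with a median of -0.73 beside -0.04 over all rows, and for 20 of 23 rows on log2(TPM + 1). Lower in both Hopx and higher in all 3 Lgr5 CR mice were 4 rows, Defa21, Defa22, Defa5 and Lyz1, against 2.47% of all rows. EdgeR called 0 rows, against 0.00631% of all rows, DESeq2 0, against 0.221%, and limma on log2(TPM + 1) 0, against 0.0189%. With isolation as a block edgeR also called 0, against 0%. An unadjusted p under 0.05 was seen for 5 rows, against 4.72% of all rows. They were Defa20 (-3.35), Defa22 (-2.58), Defa21 (-2.58), Defa5 (-2.42) and Lyz2 (-1.73). The difference for Mptx1 was -0.32 (SE 1.16), smaller than its standard error. The median was -0.17 without Hopx AL replicate 1 and -0.41 without Lgr5 AL replicate 3.

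**Figure D5:**
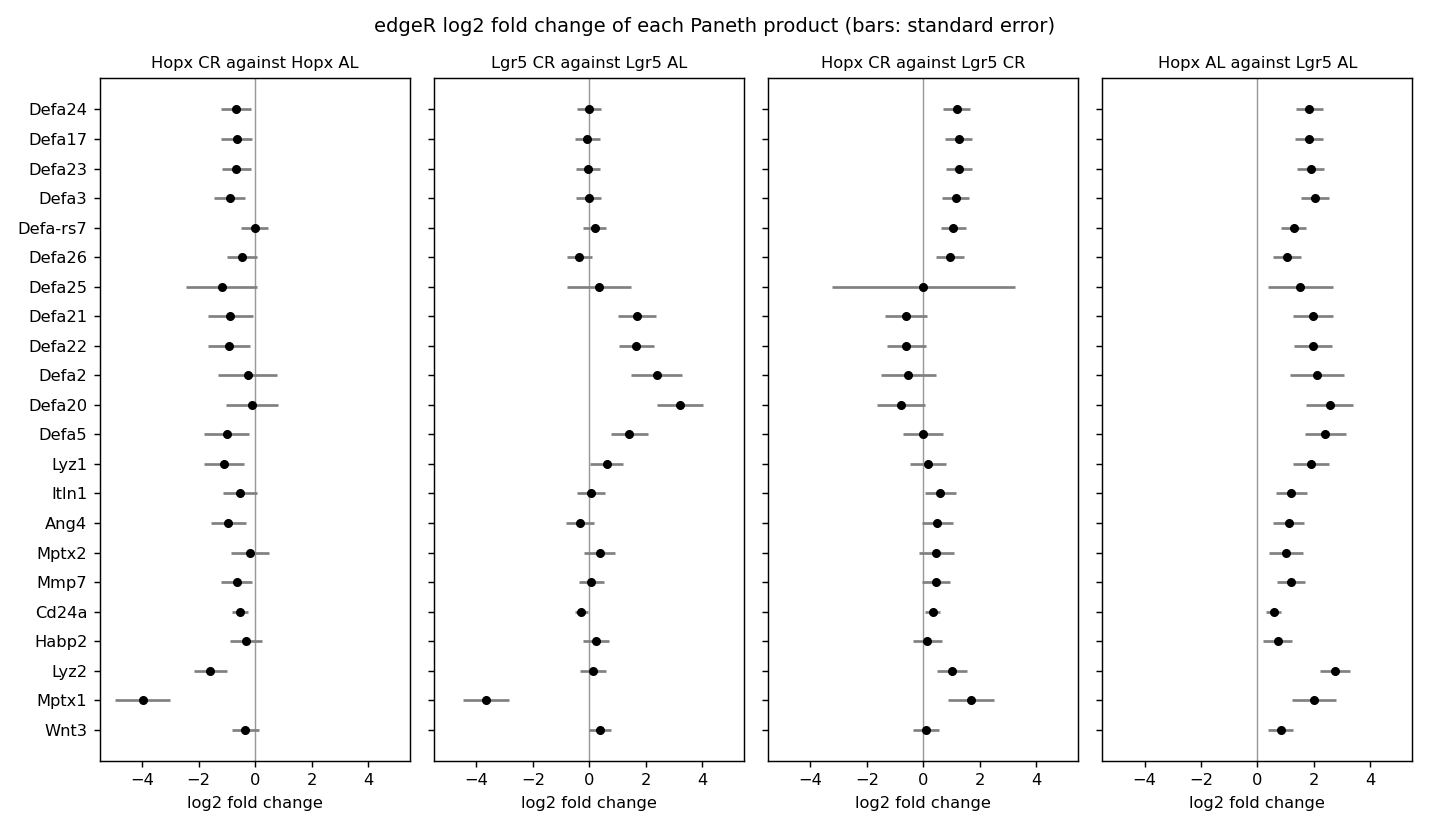
EdgeR log2 fold change (horizontal) with its standard error (bars) for gene rows (down) in 4 comparisons. On this CPM scale all rows shown lie left of 0 in Hopx CR against Hopx AL (19 of 23 members on log2(TPM + 1)) and right of 0 in Hopx AL against Lgr5 AL (21 of 23), and in Lgr5 CR against Lgr5 AL the Defa21 group is to the right and Mptx1 to the left.

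Fed ad libitum, Hopx cells had a higher summed Defa level than Lgr5 cells, although no row passed edgeR's adjusted threshold. The summed Defa level was 80832 and 43748 CPM in Hopx AL against 19707, 23732 and 6122 CPM in Lgr5 AL, a log2 ratio of 1.91, and the groups do not overlap. All 23 rows had a positive log2 fold change, with a median of 1.85 beside 0.04 over all rows. For 17 rows the CPM values lay above those of Lgr5 AL without overlap, against 18.8% of all rows, and for 0 below, against 15.8%. Here too the rows are not separate observations. EdgeR called 0 rows, against 0.0189% of all rows, while 15 had an unadjusted p under 0.05, against 17.7% of all rows. DESeq2 called 8 rows, all higher, against 7.3% of all rows, among them Defa24, Defa23, Defa17, Defa3, Defa22, Lyz1 and Lyz2. Limma on log2(TPM + 1) called 3, against 21.2% of all rows. On the TPM scale the median of all rows shifted to -0.49 and that of the members was 1.20, which is 1.70 above it, with 21 rows higher and 2 lower. The summed ratio on that scale was 1.16. In TPM, Hopx AL replicate 2 lay within the Lgr5 AL range for the Defa rows Defa2, Defa21, Defa22 and Defa26. The same held for Lyz1, Itln1, Ang4, Mmp7, Mptx2, Habp2 and Wnt3, and for Cd24a it lay below that range. Limma on log2(TPM + 0.1) called 4 rows, against 22.8% of all rows, and edgeR without the filter on low counts 6, against 0.784%.

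Defa24 differed by 1.85 (SE 0.47, edgeR adjusted p = 0.11). Lyz1 differed by 1.90, by 0.79 without Hopx AL replicate 1 and by 1.44 without Lgr5 AL replicate 3. The smallest differences were those of Cd24a at 0.58 and Habp2 at 0.73. Without Hopx AL replicate 1 the median was 1.29 and without Lgr5 AL replicate 3 it was 1.44. Without Lgr5 AL replicate 1, edgeR called 3 rows, Defa20, Defa22 and Lyz2, against 0.701% of all rows. In the same libraries 8 of 8 enteroendocrine markers had positive and 8 of 8 active stem cell markers negative values, and their part was not tested.

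Lyz2 had the smallest p among the 23 rows in this comparison. It had 89.7 and 90.2 CPM in Hopx AL against 22.1, 13.6 and 4.63 CPM in Lgr5 AL (2.74, SE 0.53, edgeR adjusted p = 0.0676). In Hopx CR it had 42.3 and 17.2 CPM, a difference of -1.60 from Hopx AL (edgeR adjusted p = 0.526), and in Lgr5 CR 14, 15.6 and 14.6 CPM. Since Lyz2 is also a gene of myeloid cells, 12 myeloid markers were read, of which 11 had a row and 7 were tested. They summed to 23.1 and 22.9 TPM in Hopx CR, 18 and 39.3 TPM in Hopx AL, 25.7, 40.4 and 41.8 TPM in Lgr5 CR, and 35.4, 46.6 and 42.9 TPM in Lgr5 AL, with 1 to 5 markers at 0 in a library. Cd14 was the larger part of that sum, at 10.96 and 24.95 TPM in Hopx AL. In Hopx AL against Lgr5 AL the log2 fold change was 3.68 for C1qb (unadjusted p = 0.0162, edgeR adjusted p = 0.18), 1.93 for Csf1r and 1.65 for C1qa, with 5 of 7 markers positive. In Hopx CR against Hopx AL 6 of 7 were negative, with a median of -0.82. Their part in the Lyz2 values was not tested. The receptor Csf1r was at 0.0280 to 0.857 TPM in all libraries. The complement genes C1qa and C1qb were highest in Hopx AL replicate 2, at 6.83 and 2.31 TPM, and C1qb was at 0 in Lgr5 AL replicate 2. Lyz2 shares 32.8% of its 31-base words with Lyz1, and its TPM was 0.0417% to 0.267% of that of Lyz1, highest in Hopx AL replicate 2.

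Under calorie restriction the populations differed less evenly. The summed Defa level was 42100 and 34256 CPM in Hopx CR against 18313, 22094 and 20365 CPM in Lgr5 CR, a log2 ratio of 0.91 with no overlap. The rows split by sequence group: Defa24 differed by 1.19, Defa23 by 1.26, Defa17 by 1.25 and Defa3 by 1.14, while Defa20 differed by -0.78, Defa21 by -0.61, Defa22 by -0.60 and Defa2 by -0.53. The median was 0.47, with 17 higher and 6 lower, beside 0.00 over all rows. On log2(TPM + 1) it was 0.14 beside -0.19, with 15 higher and 8 lower. EdgeR called 0 rows, against 0.0189% of all rows, DESeq2 0, against 1.01%, and limma on log2(TPM + 1) 0, against 0.0316%. An unadjusted p under 0.05 was seen for 5 rows, against 6.3% of all rows, all of the Defa24 group: Defa23, Defa17, Defa24, Defa-rs7 and Defa3. The CPM values were above without overlap for 9 rows, against 11.7% of all rows, and below for 2, Defa2 and Defa22, against 11.4%. Lyz1 differed by 0.17 on the CPM scale and by -0.17 on log2(TPM + 1). Without Hopx CR replicate 1 the median was 0.02. Here 7 of 7 tuft, 7 of 8 goblet and 7 of 8 enteroendocrine markers had positive values and 8 of 8 active stem cell markers negative ones, and their part was not tested. The enteroendocrine sums overlap, at 3218 and 1227 TPM in Hopx CR against 428, 2341 and 1905 TPM in Lgr5 CR.

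A companion list held 24 genes of Paneth cell identity, niche signalling and secretion, all of them tested. EdgeR called 0 of 24 in each comparison, and an unadjusted p under 0.05 was seen for 4 in Hopx CR against AL (8.52% of all rows), 4 in Lgr5 CR against AL (9.78%), 1 in the difference (4.72%), 5 in Hopx CR against Lgr5 CR (6.3%) and 6 in Hopx AL against Lgr5 AL (17.7%). The medians were 0.21, 0.12, 0.11, 0.04 and 0.10 in the same order. Tgfa, an EGF receptor ligand, had 36.7 and 35.2 CPM in Hopx CR against 22.4 and 21.4 CPM in Hopx AL, and 47, 47.6 and 37.1 CPM in Lgr5 CR against 26.6, 25.9 and 32.3 CPM in Lgr5 AL. Slc30a2, a zinc transporter, had 84.1 and 63.5 CPM in Hopx CR against 43.2 and 29.2 CPM in Hopx AL, and 121, 89 and 112 CPM in Lgr5 CR against 76.4, 49.5 and 45.8 CPM in Lgr5 AL. In CPM both genes were higher in the CR groups without overlap, as were 21.5% of all rows in Hopx and 7.41% in Lgr5 cells. In TPM Tgfa overlapped in Lgr5 cells, since Lgr5 AL replicate 3 (12.6 TPM) was above all Lgr5 CR libraries (12.2, 11.9 and 10.0 TPM). The values stood at edgeR adjusted p = 0.103 for Tgfa and 0.108 for Slc30a2 in the averaged contrast. The defensin sum was lower in 4 of 5 CR mice, but without a common size. Its log2 ratio within isolations 1 to 5 was -0.11, -0.10, 1.73, -0.94 and -0.35, beside a pooled SD of 0.63.

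Among the other companions, the Wnt receptor Fzd5 differed by 0.75 in Hopx CR against AL, and the lectin Reg3g by 1.71 in Lgr5 CR against AL. The stress-related regulator Nupr1 had the smallest p in the difference between the diet effects (-2.13), followed by Fzd5 (0.49) and the phospholipase Pla2g2a (-1.37). Spink4, a protease inhibitor that goblet cells also make, had 1506 and 866 CPM in Hopx AL against 453, 473 and 171 CPM in Lgr5 AL (1.70, edgeR adjusted p = 0.0959), and differed by 1.48 in Hopx CR against Lgr5 CR. The colipase Clps differed by 1.67 in Hopx AL against Lgr5 AL and by 1.60 in Hopx CR against Lgr5 CR. The receptor Ephb3 differed by -0.996 in Hopx AL against Lgr5 AL. The other 7 goblet cell markers summed to 3834 and 5600 TPM in Hopx CR, 5394 and 3584 TPM in Hopx AL, 2937, 3145 and 1767.5 TPM in Lgr5 CR, and 3715.5, 3104 and 1979 TPM in Lgr5 AL, so that Hopx AL and Lgr5 AL overlap. Their part in the Spink4 values was not tested.

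The members differed in how closely they tracked the defensin sum. Over the 10 libraries the Pearson r of log2 CPM with the log2 summed Defa level was 0.99 for Defa24 and Defa23, which are parts of the sum, 0.92 for Lyz1 and Mmp7, 0.91 for Itln1 and Lyz2, 0.79 for Wnt3, 0.56 for Defa20 and 0.54 for Cd24a. Outside the members and predicted genes, the 10 rows with the highest r of 14120 were Tmed6 (0.97), a cargo protein of the early secretory route, Fkbp11, Ramp1, Sec11c, a subunit of signal peptidase, Ppapdc1b, Ufc1, Ssr2, a translocon-associated protein, Ccl6, a chemokine, Dad1, a subunit of oligosaccharyltransferase, and Smim14 (0.95). The middle of the distribution over all rows was 0.03 and its 95th percentile 0.75. Tmed6 had 57.4 and 33.9 CPM in Hopx CR, 75.7 and 43 CPM in Hopx AL, 23.9, 30 and 26 CPM in Lgr5 CR, and 22.3, 32.8 and 11.9 CPM in Lgr5 AL. These values are a description, since the libraries share population, diet and depth.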

How the data were processed

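RNA of 10 libraries was amplified with SMART-Seq v4 and made into Nextera XT libraries, per the labels' protocols. The authors deposited an estimated count and a TPM value for each gene row and library. Kallisto, edgeR and the human build GRCh38 appear in the submitters' processing notes, with no versions, although the symbols are those of mouse genes. No source names the annotation. Of the 13 Defa rows, 13 had count to TPM ratios in the order of their GENCODE M21 transcript lengths.

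Estimated counts were rounded, filtered with filterByExpr (minimum count 10), scaled by TMM and fitted with 4 group means over all 10 libraries with the quasi-likelihood functions of edgeR 4.0.16 under R 4.3.3. Tests were two-sided, with Benjamini-Hochberg adjustment over 15839 rows and a threshold of 0.05. The biological coefficient of variation was 0.389. A standard error is the log2 fold change divided by the square root of F. Self-tests on simulated data recovered the direction and the median size of large planted changes. They did not assess how often smaller changes would be called. DESeq2 1.42.0 and limma 3.58.1 on TPM were alternatives. Sums and medians over rows were not tested. Within-isolation ratios and correlations used log2(CPM + 0.5). Coding sequences were aligned with Biopython 1.88. Counting error is small beside the spread between libraries for abundant rows, but not for Defa25 or for Mptx1 in the Lgr5 CR libraries and Lgr5 AL replicate 1. The libraries come from separate animals.

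Isolation numbers in the labels pair 1 CR with 1 AL mouse. The correlation of their deviations over all rows was 0.0825, 0.208, 0.0712, 0.0447 and 0.0447 in isolations 1 to 5, and the pairing comes from the label and not from this check. The members and lists were chosen with earlier results of these data known. Named genes were the 10 members outside the family, the 10 Defa rows with the highest mean CPM, the Defa row and the 3 companion genes with the smallest p in each contrast, and the 10 rows most like the Defa sum. Defa25 and Defa26, the myeloid genes and the rows Gm21002 and Gm15308 fall outside that rule and were chosen after their values were seen. One Defa row counts in the sums and totals and is otherwise not reported here.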

Additional observations from a re-analysis of the deposited data

Results flagged for a closer look

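The diet effect ran in opposite directions in every isolation of the 2 populations for 4 members: lower in the CR mouse of both Hopx isolations and higher in the CR mouse of all 3 Lgr5 isolations, as were 2.47% of all rows tested. The 4 are singled out for this pattern. The difference between the log2 diet effects, Hopx minus Lgr5, was -2.58 for Defa21, -2.58 for Defa22, -2.42 for Defa5 and -1.74 for Lyz1. By the interaction test of edgeR none passed, with an adjusted p of 0.9999 for each. Within isolation 5 the log2 ratios were small for 3 of them, at -0.01 for Defa21, -0.05 for Defa22 and -0.03 for Defa5, and -0.42 for Lyz1. For Lyz1 the ratios within isolations 1 and 2 were 0.04 and 0.06. The diet effect of Lyz1 in Hopx cells was -1.11, and -0.02 without Hopx AL replicate 1. In Lgr5 cells it was 0.63, and 0.18 without Lgr5 AL replicate 3. Of the 31-base words, 16% for Defa21, 8.23% for Defa22 and 0.289% for Defa5 occur in no other gene. The values of these Defa rows therefore depend on how shared reads were divided. Defa21 shares 84% of its words with Defa22, so the 2 rows are not separate evidence.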

How the results depend on the processing

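Counts of called members started at 0 in each comparison. In Hopx CR against Hopx AL, DESeq2 called 1. In Lgr5 CR against Lgr5 AL, 2 were called without the filter on low counts, 2 by DESeq2 and 1 by limma on log2(TPM + 0.1). In Hopx AL against Lgr5 AL, 6 were called without the filter, 8 by DESeq2, 3 by limma on log2(TPM + 1) and 4 on log2(TPM + 0.1). In the averaged diet contrast, added after the data had been seen, 1 was called without the filter and 1 by DESeq2. With 1 library left out at a time the counts ranged over 0 to 4 in Lgr5 cells, 0 to 3 in Hopx AL against Lgr5 AL, 0 to 2 in the averaged contrast and 0 to 0 elsewhere. The replicate block by isolation called 0 members in each diet contrast. The summed Defa ratio of 1.91 in Hopx AL against Lgr5 AL was 1.16 on both TPM scales.

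Leaving out 1 library moved the member median over -1.03 to -0.05 in Hopx CR against AL, -0.18 to 0.60 in Lgr5 CR against AL, -1.32 to -0.17 in the difference, 0.02 to 0.75 in Hopx CR against Lgr5 CR, 1.29 to 2.19 in Hopx AL against Lgr5 AL and -0.47 to 0.09 in the averaged contrast. The summed ratios ranged over -1.08 to -0.19, -0.10 to 0.65, -1.38 to -0.45, 0.76 to 1.06, 1.37 to 2.30 and -0.40 to 0.04 in the same order. With the rows under older Defa names, an addition made after the data had been seen, the sums gave -0.59, 0.34, -0.94, 0.92, 1.85 and -0.13.

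Beside the medians and sums above, whose ranges cross 0 in Lgr5 CR against AL and in the averaged contrast, signs turned for 4 of the values followed for named members. The values followed were those of Lyz1, Defa24 and Mptx1 in each contrast, and those of members with an unadjusted edgeR p under 0.05 in it. Values not followed turned as well. In Lgr5 CR against AL, Defa17, Defa23 and Defa3 turned from negative to 0.14, 0.15 and 0.18 with the replicate block. Wnt3 in the averaged contrast was 0.0203 in edgeR and -0.0033 in DESeq2. The cause was not tested. Defa24 in Lgr5 CR against AL (-0.02) was 0.0043 without the filter and 0.16 with the replicate block. With 1 library left out it was 0.01, 0.09 and 0.37 without Lgr5 CR replicate 1, Lgr5 AL replicate 1 and Lgr5 AL replicate 2, and -0.40 at the lowest. Mptx1 in the difference (-0.32) ranged over -0.78 to 0.19 with 1 library left out and was positive without Lgr5 AL replicate 1 (0.19) or Lgr5 CR replicate 3 (0.14). Lyz1 in Hopx CR against Lgr5 CR (0.17) was -0.17 on both TPM scales and ranged over -0.23 (without Hopx CR replicate 1) to 0.48. Lyz1 in the averaged contrast (-0.24) was 0.039 on both TPM scales and ranged over -0.55 to 0.29 (without Hopx AL replicate 1). The size factors of DESeq2 in edgeR, scaling without the members and fits of only the groups compared turned the sign of no median, sum or value followed for a named member and made no call, although in the averaged contrast the members split 8 higher and 15 lower, and 7 and 16 with those size factors.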
